A study of Rattus norvegicus with 9 samples.

Results

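Macrophages of the bone marrow were followed through a panel of 10 genes that mark these cells: Cd68, Adgre1, Cd163, Mrc1, C1qa, C1qb, C1qc, Vsig4, Marco and Csf1r. Members were found by their symbol in the deposited count and FPKM tables, and 9 of the 10 had a row among 23026 genes. Marco was not analysed here. All 9 passed the filter on low counts, which left 16874 genes for testing.

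RNA was taken from the bone of female Sprague-Dawley rats, 8 weeks old at purchase, and 3 libraries were made for each of 3 groups. Sham rats kept their ovaries and lost only a like amount of nearby fat, OVX rats lost both ovaries, and OVX-AS-IV-High rats lost both ovaries and later received astragaloside IV (AS-IV), a saponin of Astragalus root, at 80 mg/kg. Gavage began 6 weeks after surgery and lasted 8 weeks. The control groups received the vehicle, sodium carboxymethyl cellulose (CMC-Na), and by the study's methods AS-IV was prepared in 1% CMC-Na as well. The labels give 1% CMC-Na for all OVX libraries but 1%, 2% and 3% for Sham replicates 1, 2 and 3, whereas the study's methods name a single concentration for both control groups. Whether the vehicle differed between the Sham rats is therefore not known, and they were kept as 1 group. Ovariectomy models the loss of ovarian hormones at menopause in rats that were still young.

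Macrophages of the marrow arise from monocytes and from long-lived resident cells, and they need signalling through CSF1R to survive. They clear dying cells, swallow the nuclei that erythroblasts expel, recycle iron and stand at the centre of the erythroblastic islands in which red cells mature. Osteoclasts share this lineage, also depend on CSF1R and carry CD68, so that Cd68 and Csf1r in whole bone are not limited to macrophages. Whole bone is a mixture, and a lower level of a gene may stand for fewer cells or for less RNA per cell, which cannot be told apart here.

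The promoters of 8 members were held by the RefSeq table of assembly GRCr8, and C1qc had no entry. Some are shown because their genes form the ratios that separated the groups below. They were searched on both strands for GAGGAA, the core bound by the myeloid factor PU.1, and for TGCTGAC, a site bound by MAF proteins. Each stretch runs 5′ to 3′ on the gene's own strand and stops before the outermost annotated start of the gene. It holds 250 bases, except for Adgre1, where another annotated start lies inside the window and 208 of the 250 bases are printed. Capitals mark the matches, and TTCCTC is GAGGAA on the other strand.
Cd68 (GRCr8 chr10:54882442-54882691, minus strand): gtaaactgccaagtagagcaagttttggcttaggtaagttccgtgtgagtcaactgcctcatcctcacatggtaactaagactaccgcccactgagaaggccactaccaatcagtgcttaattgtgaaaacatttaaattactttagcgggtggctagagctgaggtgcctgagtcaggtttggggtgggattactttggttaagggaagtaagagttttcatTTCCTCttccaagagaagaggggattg
Adgre1 (GRCr8 chr9:2329190-2329397, plus strand): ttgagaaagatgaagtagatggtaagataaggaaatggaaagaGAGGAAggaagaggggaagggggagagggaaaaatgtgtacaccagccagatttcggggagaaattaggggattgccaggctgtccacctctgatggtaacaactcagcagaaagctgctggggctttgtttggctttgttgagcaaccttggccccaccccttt
C1qa (GRCr8 chr5:154419934-154420183, minus strand): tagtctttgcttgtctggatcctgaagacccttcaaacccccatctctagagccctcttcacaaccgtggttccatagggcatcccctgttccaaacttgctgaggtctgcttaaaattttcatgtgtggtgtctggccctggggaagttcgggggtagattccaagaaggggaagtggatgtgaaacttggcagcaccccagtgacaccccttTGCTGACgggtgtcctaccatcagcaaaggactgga
C1qb (GRCr8 chr5:154407828-154408077, minus strand): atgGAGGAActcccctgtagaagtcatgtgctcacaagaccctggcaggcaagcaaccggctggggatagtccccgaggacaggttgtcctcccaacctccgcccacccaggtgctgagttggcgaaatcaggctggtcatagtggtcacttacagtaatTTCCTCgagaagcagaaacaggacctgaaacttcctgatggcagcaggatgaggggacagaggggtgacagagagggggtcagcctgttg
Within the 250 bases before the start, GAGGAA occurred in 5 of 8 members (Cd68, Adgre1, Mrc1, C1qb and Csf1r) and in 23.3% of 33469 promoters. In Csf1r another annotated start leaves only the first 23 bases of the window before it. Neither of the 2 Csf1r matches, 229 and 95 bases before the start, lies wholly within those bases. TGCTGAC occurred in 1 of 8, C1qa, 36 bases before the start, and in 3.53% of all promoters. C1qb, C1qc and C1qa lie next to each other in the RefSeq gene table, yet the windows of C1qa and C1qb share neither motif. A match is a description of the letters only.

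Depth was even, with between 34874880 and 37298250 counts per library. Markers of the labelled tissue were present in every library: the summed level of 6 osteoblast genes lay between 3170 and 11560 CPM (counts scaled to library depth), and that of 8 erythroid genes between 36640 and 61420 CPM. Genes of skeletal muscle were present as well. Their 7 measured members summed to 7984, 5147 and 1463 CPM in Sham replicates 1, 2 and 3, to between 1435 and 2779 CPM for OVX and to between 496.9 and 3954 CPM for the treated rats. Sham replicates 1 and 2 thus held the most muscle RNA of the 9 libraries.

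The same Sham libraries set the spread of the macrophage panel. Sham replicate 3 had the highest value of its group for 9 of 9 members and the highest of all 9 libraries for 7, while Sham replicate 1 had the lowest value of its group for 9 of 9. The 9 members together summed to 540.5, 679.8 and 1016 CPM in Sham replicates 1, 2 and 3. Osteoclast markers moved with them, at 982, 1433 and 2183 CPM, and so did osteoblast markers, at 3170, 4349 and 8811 CPM, whereas muscle markers ran the other way. Genes common to all leukocytes did not share this order, with 6 of them summing to 2628, 2477 and 2358 CPM. The part of muscle, osteoclast or osteoblast RNA in the results below was not tested. The number of members called and the number of member pairs apart in each comparison with Sham are therefore given with and without Sham replicate 3.

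**Figure D1:**
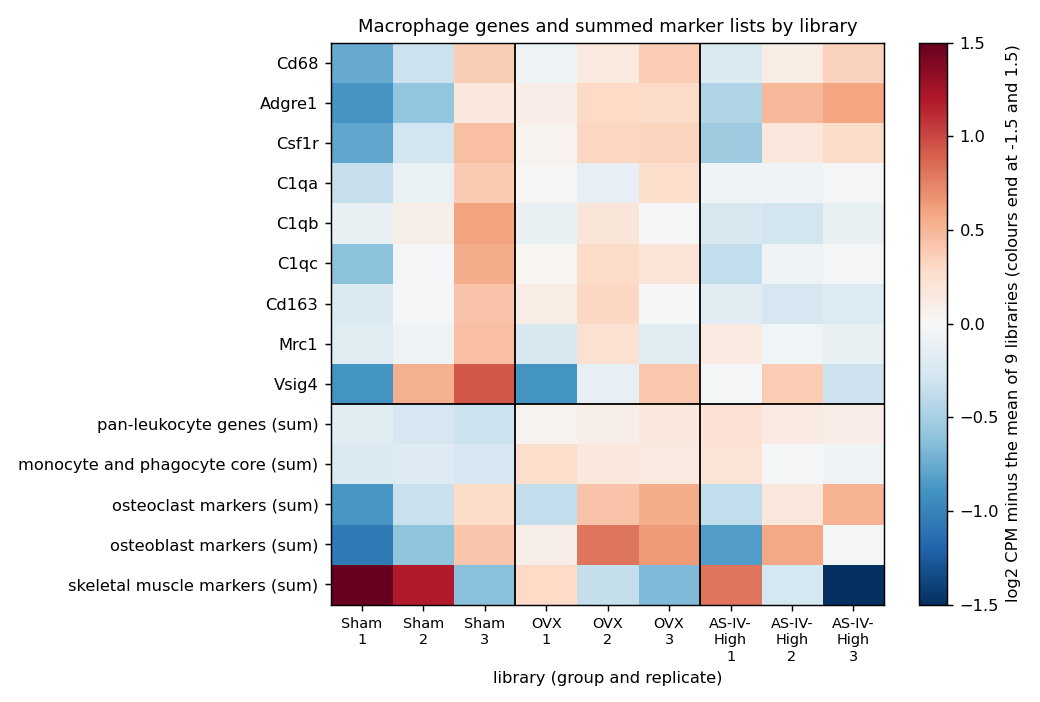
Level of each macrophage gene and of 5 summed marker lists in the 9 libraries, as log2 CPM minus the mean of the 9 libraries (red higher, blue lower, colours ending at -1.5 and 1.5). Sham replicate 3 is red for 9 of 9 macrophage genes and blue for the summed muscle markers, at 1463 CPM, while Sham replicate 1 is blue for 9 of 9 macrophage genes and dark red for muscle, at 7984 CPM.

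Complement genes were the most abundant of the panel per length. Over the 9 libraries the median FPKM (fragments mapped per kilobase of gene, scaled to depth) was 123.4 for C1qa, 103.6 for C1qc and 75.3 for C1qb, the chains of the C1q molecule that opens the classical complement pathway. Cd68, a lysosomal glycoprotein, stood at 69.4 and Csf1r, the receptor for CSF1 and IL-34, at 39.2. The haptoglobin-hemoglobin receptor Cd163 and the mannose receptor Mrc1 stood lower, at 12.9 and 13.3, and Adgre1, which encodes the antigen F4/80, at 6.65. Vsig4, a receptor for complement fragments on resident macrophages, was last at 0.361. The order C1qa, C1qc, C1qb, Cd68 and Csf1r by mean FPKM was the same in all 3 groups. In Sham, the library ranges of neighbours overlapped from C1qa down to Csf1r, in OVX between C1qa and C1qc and between C1qb and Cd68, and under treatment between C1qb and Cd68.

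The first comparison asked what ovariectomy did to the panel, and 0 of 9 members passed the test in OVX against Sham, where 16.4% of all tested genes did. A gene was called at an unadjusted p under 0.05 in the quasi-likelihood test of edgeR, and 0 genes passed after Benjamini-Hochberg adjustment in any comparison. Of the 9 log2 fold changes (log2FC), 6 lay above 0 and 3 below, with a median of 0.06 against -0.0062 over all genes. The libraries of the groups overlapped for every member, where they did not overlap for 23.3% of genes.

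Adgre1 had the highest log2FC of the 9 members, 0.62. It measured 3.24, 3.85 and 6.65 FPKM in Sham and 6.51, 7.61 and 7.38 FPKM in OVX. Sham replicate 3 lay just inside the OVX range, and the other two Sham libraries lay well below it. The OVX mean was 1.53-fold the Sham mean by edgeR (95% CI 0.936 to 2.51, adjusted p = 0.352), which did not pass the test (unadjusted p = 0.082 in edgeR). Without Sham replicate 3 the log2FC was 0.99 in place of 0.62, with an unadjusted p of 0.0087 in edgeR. Without OVX-AS-IV-High replicate 1, which enters through the shared spread, the log2FC was 0.62 and the unadjusted p 0.0326 in edgeR.

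Cd68 measured 38.7, 50.6 and 83.1 FPKM in Sham against 62.4, 73.5 and 84.5 FPKM in OVX. Csf1r measured 20.8, 28.3 and 48.2 FPKM in Sham against 37.2, 45.5 and 44.6 FPKM in OVX. In both genes Sham replicates 1 and 2 were the lowest of these 6 libraries, and Sham replicate 3 was among the highest. The log2FC was 0.33 for Cd68 (SE 0.266) and 0.36 for Csf1r (SE 0.303), both within the spread between libraries.

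The complement genes held closer to the Sham level. C1qa measured 102.9, 117.4 and 168.2 FPKM in Sham and 132.1, 121.5 and 154.4 FPKM in OVX. C1qb measured 75.2, 83.4 and 121 FPKM in Sham and 75.3, 94 and 78.9 FPKM in OVX. C1qc measured 69.7, 101.1 and 153.7 FPKM in Sham and 108.9, 131.4 and 120.3 FPKM in OVX. All OVX libraries of the 3 genes lay inside the Sham range. Their log2FC were 0.04 (95% CI -0.35 to 0.44), -0.20 (95% CI -0.59 to 0.18) and 0.12 (95% CI -0.43 to 0.68).

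Cd163, which clears hemoglobin bound to haptoglobin, measured 11.7, 12.9 and 17.9 FPKM in Sham against 14.7, 17.2 and 13.5 FPKM in OVX. Mrc1 measured 12.9, 13.2 and 19.5 FPKM in Sham against 12.3, 17.3 and 12.8 FPKM in OVX. Neither separated the groups, with log2FC of 0.06 (95% CI -0.29 to 0.41) and -0.14 (95% CI -0.55 to 0.28). Vsig4 was counted 2, 34 and 52 times in Sham and 2, 17 and 32 times in OVX, so that replicate 1 of both groups fell below the floor of 3 counts. At this depth a difference in Vsig4 was not detectable, since the 95% CI of its log2FC ran from -3.13 to 1.39.

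Leaving out Sham replicate 3 changed this comparison more than any other library did. Then 5 of 9 members passed the test, where 25.2% of genes did, and all 5 were higher in OVX: Adgre1, Cd68 (log2FC 0.69), Csf1r (log2FC 0.76), C1qc (log2FC 0.46) and Cd163 (log2FC 0.27). With that library left out, the Sham group is the pair of libraries with the most muscle RNA. The lowest adjusted p among the 5 was 0.107 in edgeR.

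**Figure D2:**
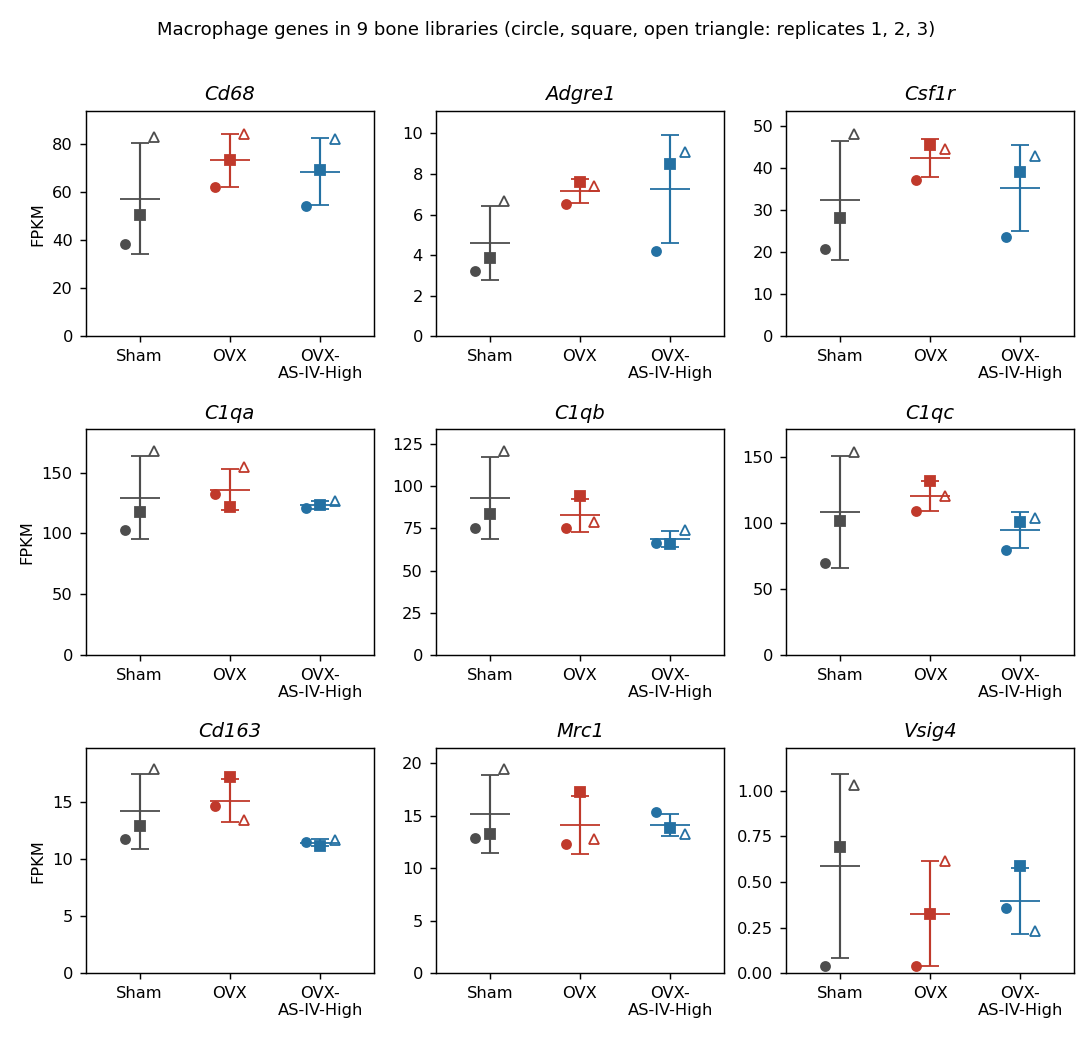
FPKM of the 9 macrophage genes in each library by group. Circles, squares and open triangles stand for replicates 1, 2 and 3, horizontal lines for the mean and error bars for the SD (n = 3 libraries). Sham replicate 3 is the highest Sham library in all 9 panels, and the OVX-AS-IV-High libraries of Cd163 lie between 11.2 and 11.7 FPKM, below the 3 OVX libraries.

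The second comparison asked what AS-IV did in ovariectomized rats. Cd163 alone passed the test among the 9 members in OVX-AS-IV-High against OVX, and it was lower, where 6.45% of genes passed in either direction and 2.03% were lower. It measured 11.6, 11.2 and 11.7 FPKM in OVX-AS-IV-High against 14.7, 17.2 and 13.5 FPKM in OVX. The treated libraries were close together and all lay below the OVX libraries. The treated level was 0.778-fold the OVX level (log2FC -0.36, SE 0.157, unadjusted p = 0.0458 and adjusted p = 0.769 in edgeR). Whether libraries of the same replicate number belong together is not known. With the replicate block the log2FC was -0.36 at an unadjusted p of 0.0521 in edgeR, so that the call was lost, where 7.76% of genes passed. Among 18 alternatives the call was kept in 9 and lost in 9, with log2FC between -0.43 and -0.27 and adjusted p between 0.607 and 1.00. The calls were lost without Sham replicate 2, without OVX replicate 1 or 2 and without any of the 3 treated libraries.

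For 3 of 9 members the treated and OVX libraries did not overlap, where this held for 12.7% of genes, and all 3 were lower under treatment, where 6.36% of genes were. Besides Cd163 these were C1qb and C1qc. C1qb measured 66.2, 65.8 and 74.3 FPKM in the treated group against 75.3 FPKM or more in OVX. On the TMM-scaled CPM used for this count, C1qb was only just apart. Its highest treated library stood at 79.95 CPM and its lowest OVX library at 80.17 CPM. C1qc measured 79.3, 100.8 and 103.6 FPKM against 108.9 FPKM or more. Neither passed the edgeR test, at log2FC of -0.23 (95% CI -0.62 to 0.16) and -0.31 (95% CI -0.87 to 0.24). C1qa, at 120.6, 123.4 and 127.1 FPKM under treatment, overlapped with OVX. A 2-sided exact permutation test of 3 against 3 libraries cannot give a p below 0.1, and it gave 0.1 for each of the 3 genes.

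Other members lay within the OVX spread or across it. Adgre1 measured 4.23, 8.48 and 9.09 FPKM under treatment and reached both below and above the OVX libraries. Cd68 measured 54.3, 69.4 and 82.3 FPKM and Csf1r 23.7, 39.2 and 43 FPKM. For Adgre1, Cd68 and Csf1r alike, treated replicate 1 was the lowest of the group. That library also held the most muscle RNA of its group, at 3954 CPM, and the least osteoclast RNA, at 1399 CPM. Mrc1 measured 15.3, 13.8 and 13.3 FPKM and overlapped with OVX. Vsig4 was counted 19, 31 and 12 times.

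Against Sham, the treated group tells how far the panel stood from rats with ovaries. C1qb alone passed among the 9 members and was lower, where 17.6% of genes passed and 8.48% were lower. The 3 treated libraries of C1qb, at 66.2, 65.8 and 74.3 FPKM, lay below 75.2, 83.4 and 121 FPKM in Sham. On the CPM scale with TMM factors, the highest treated library, at 79.9 CPM, passed the lowest Sham library, at 79.7 CPM, so that the groups overlapped. On that scale 0 of 9 members separated these groups, where 19.9% of genes did. The treated level was 0.742-fold the Sham level (log2FC -0.43, SE 0.172, unadjusted p = 0.0324 and adjusted p = 0.245 in edgeR). Without Sham replicate 3 the log2FC was -0.20, and the call was lost (unadjusted p = 0.135 in edgeR). The call was lost in 6 of 18 alternatives, among them those without treated replicate 1 or 2. Over all 18, adjusted p lay between 0.0161 and 0.503. The lowest came from edgeR with counts scaled to leukocyte genes, where 44.1% of all genes were called.

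Adgre1 pointed the other way in the same comparison, with a log2FC of 0.67 (95% CI -0.04 to 1.38), and did not pass (unadjusted p = 0.0628 in edgeR). Without Sham replicate 3, Adgre1 (log2FC 1.04) and Cd68 (log2FC 0.63) passed and were higher, where 23.3% of genes passed, and C1qb did not. Treated and OVX rats were both set against the same Sham libraries, and OVX entered both of the first comparisons, so these fold changes are not independent of each other. For Adgre1 the log2FC against Sham was 0.62 for OVX and 0.67 for the treated rats, for Csf1r 0.36 and 0.12, for Cd163 0.06 and -0.30, and for C1qb -0.20 and -0.43.

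**Figure D3:**
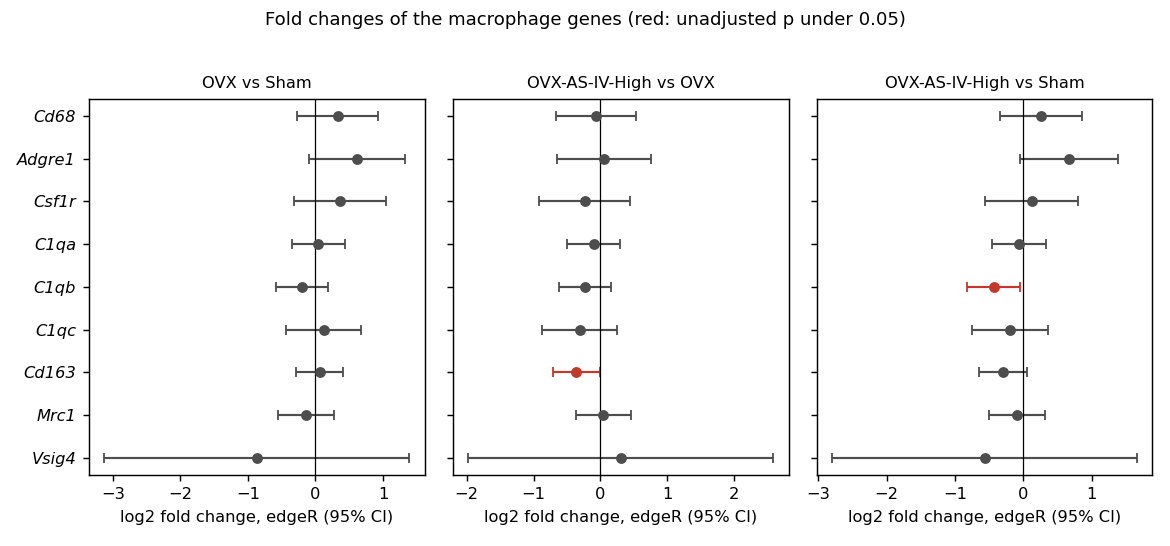
Log2 fold change of each macrophage gene in the 3 comparisons, with points for the edgeR estimate and bars for its 95% confidence interval (n = 3 libraries a group). Red marks an unadjusted p under 0.05: Cd163 in OVX-AS-IV-High against OVX, at -0.36, and C1qb in OVX-AS-IV-High against Sham, at -0.43. The interval of Vsig4 is the widest in each panel.

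Ratios within a library cancel what all members share, such as the amount of macrophage RNA in a piece of bone. They were computed after the data were seen. Of the 36 pairs of members, 15 (41.7%) had ratios that did not overlap between OVX and Sham, where this held for 21.0% of all gene pairs. Adgre1 was in 7 of these 15, with the ratio to each other member except Vsig4, and it was higher in OVX in each of them. C1qb was in 5. Each member enters 8 pairs, so the pairs are not independent, and a shift in 1 gene is counted in several of them. Leaving out a library raises the share over all gene pairs too. Without Sham replicate 1 the member pairs numbered 24 of 36 (66.7%), where 30.3% of all gene pairs did not overlap, and without Sham replicate 3 they numbered 20 (55.6%), where 44.7% of all gene pairs did not.

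Adgre1 over C1qb was 0.0431 to 0.0549 in Sham and 0.0809 to 0.0936 in OVX, as a ratio of FPKM. Cd68 over C1qb was 0.514 to 0.687 in Sham and 0.782 to 1.07 in OVX. Csf1r over C1qb was 0.277 to 0.399 in Sham and 0.484 to 0.566 in OVX. These 3 ratios are among the pairs that did not overlap, so Sham replicate 3 lies with its own group by that choice. It was the Sham library nearest to OVX in all 3. A 2-sided exact permutation test gave p = 0.1 for each, the smallest possible, which groups that do not overlap always give. Osteoclasts contribute to Cd68 and Csf1r, and the summed osteoclast markers were 982 to 2183 CPM in Sham and 1400 to 2655 CPM in OVX. Their part in these ratios was not tested.

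Between OVX-AS-IV-High and OVX, 2 of 36 pairs (5.56%) did not overlap, where 11.3% of all gene pairs did not. These were Adgre1 over Csf1r, which was higher under treatment by 0.25 on the log2 scale of count ratios, and Cd163 over Mrc1, which was lower by a difference of -0.41. Without OVX replicates 1, 2 and 3 the pairs numbered 2, 5 and 9, where 22.6%, 18.9% and 20% of all gene pairs did not overlap. Without treated replicates 1, 2 and 3 they numbered 12, 4 and 5, where 23.7%, 17.9% and 24.5% of all gene pairs did not overlap. Against Sham, 11 of 36 pairs (30.6%) did not overlap, where 18.7% of all gene pairs did not. Without Sham replicate 1 there were 19, where 28.6% of all gene pairs did not overlap, without Sham replicate 3 there were 16 (38.3% of all gene pairs), and without treated replicate 1 there were 25 (36.1% of all gene pairs). Adgre1 over C1qb was 0.0638 to 0.129 in the treated group. C1qa over C1qb, chains of the same molecule, ran from 1.37 to 1.41 for Sham, 1.29 to 1.96 for OVX and 1.71 to 1.88 for the treated rats, so that the treated libraries lay above Sham while OVX spanned both.

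**Figure D4:**
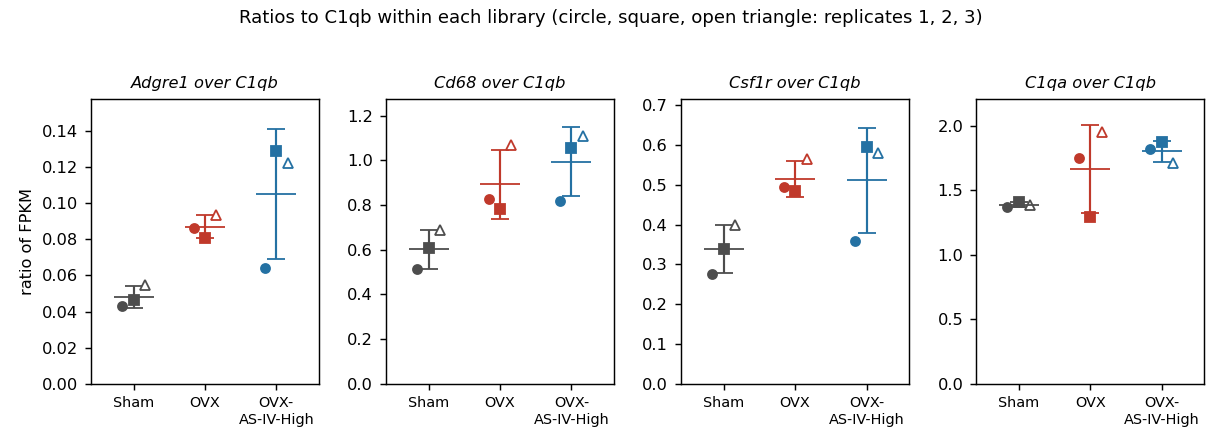
Ratio of the FPKM of Adgre1, Cd68, Csf1r and C1qa to that of C1qb within each library. Circles, squares and open triangles stand for replicates 1, 2 and 3, horizontal lines for the mean and bars for the SD (n = 3 libraries). For Adgre1 the Sham libraries lie between 0.0431 and 0.0549 and the OVX libraries between 0.0809 and 0.0936.

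The panel was also set against leukocyte RNA as a whole. Of 6 genes common to leukocytes, 4 were higher in OVX than in Sham, and their sum ran from 2358 to 2628 CPM for Sham, 3047 to 3274 CPM for OVX and 3143 to 3431 CPM for the treated rats. As a percentage of that sum, C1qb CPM was 3.03, 3.71 and 5.57 in Sham. It was 2.63, 3.15 and 2.59 with OVX alone and 2.14, 2.23 and 2.54 under treatment. All treated libraries lay below all OVX and all Sham libraries. Cd163 did the same, at 2.38 to 2.55% under treatment against 2.82% or more elsewhere. C1qc, at 2.53 to 3.51% under treatment, lay below OVX, at 3.765% or more, and overlapped with Sham. Mrc1 was at 2.20 to 2.40% under treatment against 2.52% or more in Sham, and overlapped with OVX. Adgre1, Cd68, Csf1r and C1qa overlapped between all groups on this scale. In all, 0 of 9 members did not overlap in OVX against Sham, where this held for 42.2% of genes, 3 of 9 in OVX-AS-IV-High against OVX, where it held for 12.9%, and 3 of 9 in OVX-AS-IV-High against Sham, where it held for 42.9%.

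Genes of monocytes and of phagocytes at large were higher in part after ovariectomy. Of 14 genes, 4 were higher in OVX than in Sham and 0 lower, where 8.16% of all tested genes were higher and 8.28% lower. The 4 were the monocyte chemokine receptor Ccr2 (log2FC 0.67, SE 0.153), the pore-forming Mpeg1 (log2FC 0.60, SE 0.147), the lysozyme gene Lyz2 (log2FC 0.43, SE 0.120) and the signalling adaptor Tyrobp (log2FC 0.26, SE 0.109). The 14 genes summed to 6959 to 7214 CPM in Sham and 9099 to 9883 CPM in OVX, of which Lyz2 alone made up 83.5 to 88.4% in these libraries. The other 13 genes summed to 950.5 to 1147 CPM in Sham and 1138 to 1300.0 CPM in OVX, and these ranges overlapped. The median log2FC of the list was 0.11, and the same 4 genes were higher in OVX-AS-IV-High against Sham, where 9.17% of genes were. Against OVX, 0 of 14 passed in the treated group at an unadjusted p under 0.05 in edgeR, where 4.42% of genes were higher. Without Sham replicate 3, 5 of 14 were higher in OVX than in Sham, where 12.9% of all genes were, with Ctss and Cx3cr1 among them and Tyrobp not, and Lyz2 and Tyrobp lost their calls in the treated group against Sham.

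The lists that follow are read against the same shares of all tested genes: 8.16% higher and 8.28% lower for OVX against Sham, 4.42% and 2.03% under treatment against OVX, and 9.17% and 8.48% under treatment against Sham. Against Sham, 1 call in a direction within a list of 8 to 13 genes is thus near the share of all genes. A list with more calls, or with 1 under treatment against OVX, lies above the share. The lists are short, and nothing is concluded from such counts.

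Among 8 transcription factors of macrophages, 2 were higher and 1 lower in OVX against Sham. Spi1, which encodes PU.1, rose by 0.25 and Irf8, a factor of the monocyte lineage, by 0.45 on the log2 scale. Maf fell by 0.41 in OVX and was higher by 0.48 under treatment. In the same comparison Irf8 was lower (log2FC -0.30), as was Klf4 (log2FC -0.38), a factor of monocyte differentiation. Against Sham, Spi1 was higher in the treated group (log2FC 0.27) and the lipid sensor Nr1h3 was lower (log2FC -0.40), 1 of 8 in each direction. Spi1 and Irf8 kept their calls in OVX against Sham without Sham replicate 3, and Maf and the ligand Csf1 lost theirs. Of the 2 ligands of CSF1R, Csf1 was lower in OVX than in Sham (log2FC -0.40), while Il34 did not pass (log2FC -0.36). Both were lower in the treated group than in Sham, at -0.43 and -0.88.

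Iron recycling and the uptake of dying cells are core tasks of marrow macrophages. Hmox1, the heme oxygenase that breaks down heme, averaged 247.2 CPM for Sham, 146.8 CPM for OVX and 137 CPM for the treated rats (log2FC -0.75 and -0.85 against Sham, adjusted p = 0.118 and 0.0738 in edgeR). Cd5l, a secreted protein of tissue macrophages, was higher in OVX than in Sham (log2FC 0.87) and in the treated group than in Sham (log2FC 0.47). The other 5 of the 7 genes did not pass in OVX against Sham, and Slc40a1, the iron exporter, was higher under treatment than in OVX (log2FC 0.25). Of 8 uptake genes, 3 were lower in OVX than in Sham: the scavenger receptor Stab1 (log2FC -0.85), the receptor kinase Axl (log2FC -0.46) and the phosphatidylserine receptor Timd4, at 0.94 CPM in Sham and 0.179 CPM in OVX. Stab1 (log2FC -0.61) and Axl (log2FC -0.51) were lower in the treated group too. Timd4 was higher under treatment than in OVX, at 0.474 CPM, and all its levels were low. Stab1 is also carried by sinusoidal endothelium. Hmox1, Cd5l, Stab1 and Timd4 kept their calls in OVX against Sham without Sham replicate 3, and Axl lost its call.

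Partners of C1q in the complement system were counted next to it. Of 13 genes, 2 were higher in OVX than in Sham, C3 (log2FC 0.32) and C4a (log2FC 0.80), and 1 was lower, the integrin Itgax (log2FC -0.35). Without Sham replicate 3, 5 of 13 were higher in OVX, with C1r, C1s and C2 added, where 12.9% of all genes were. Itgax then kept its call. C4a has the near-identical neighbour C4b, and how reads were shared between them is uncertain. In OVX-AS-IV-High against OVX, 0 of 13 passed at an unadjusted p under 0.05 in edgeR. Against Sham, C3 (log2FC 0.47), the receptor C5ar1 (log2FC 0.31) and the integrin chain Itgb2 (log2FC 0.24) were among those higher in the treated group, and C5ar1 and Itgb2 lost their calls without Sham replicate 3. Of 10 scavenger and pattern receptors, the fungal sensor Clec7a was higher in OVX (log2FC 0.37) and in the treated group (log2FC 0.61) than in Sham. Tlr2, a receptor for bacterial lipoproteins, was higher in the treated group than in OVX (log2FC 0.46) and than in Sham (log2FC 0.62).

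Likeness to the panel was measured as the root mean square distance between centred log2 CPM profiles over the 9 libraries, among 6162 genes with a mean of at least 10 FPKM. The mean profile of C1qa, C1qb and C1qc was nearest to Ddx19a, Mrpl2, Timm22, Dctpp1 and Aldh18a1, at distances of 0.0934 to 0.099. These were closer than Cd163, at 0.127, and Cd68, at 0.248. The mean profile of Cd163 and Vsig4 was nearest to Vcam1, Akr1c14, Fkbp5, Mt3 and Foxo3, at 0.199 to 0.216. All profiles share the 9 libraries and their order, and the distances are a description only.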

How the data were processed

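Bone mRNA was sequenced in 9 libraries, 3 in each group. The authors cleaned reads with NGS QC Toolkit 2.3.3, used Tophat and Bowtie2 for alignment and eXpress, on Bowtie2 alignments, for quantification. The submitters' notes name the build mRatBN7.2. They deposited raw read counts per gene as whole numbers, and how the estimates of eXpress became whole is not given in the sources used here. The deposited FPKM values are scaled to gene length and depth by the authors.

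The count test was edgeR 4.0.16 (quasi-likelihood, R 4.3.3) on all 9 libraries in a single fit, with TMM factors and the default filter (minimum count 10), which 16874 genes passed. The common coefficient of biological variation came to 0.256. The script was tested on simulated data. Genes were called at an unadjusted p under 0.05, the kind of p the study used, and adjusted p-values are Benjamini-Hochberg values over all genes tested. Alternatives used DESeq2 1.42.0, limma 3.58.1 on log2(FPKM + 1) and log2(FPKM + 0.1), other scalings and filters, a replicate block, and each library left out. Figures and ratios were made in Python 3.11.15. CPM per library used TMM-scaled counts, with 0.5 added before logs. Ratios of member pairs used raw counts with 0.5 added, and the ratios to C1qb shown per library used the deposited FPKM.

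The 10 members and all marker lists were chosen with earlier results of these data known. Every member is given. Of each list, the genes called are named, apart from a few that are not reported here, and the likeness rule named 5 genes a profile. Deviations of same-numbered libraries from their group means correlated at 0.31, 0.158 and 0.13 between OVX-AS-IV-High and OVX. Differently numbered libraries were not set beside them and the labels name no pairs, so a pairing is not established. Summed muscle markers also fell from replicate 1 to replicate 3 in each group, and their part in these correlations was not tested. Nothing in the labels ties a library to 1 animal, and p-values measure the spread between these libraries. Depth allows a floor of 3 counts, for counting error only. Of the gene identifiers, 21657 matched the RefSeq gene table, 9 of 9 members among them.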

Additional observations from a re-analysis of the deposited data

How the results depend on the processing

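Of 483 values of the members' log2FC under the alternatives, 407 kept their direction and their side of the threshold, 23 passed it, 15 lost it and 38 reversed. None of the reversed values was called in either setting. With 3 libraries a group, depth limits only Vsig4.

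The count of members called, 0 in OVX against Sham, was 2 when counts were scaled to leukocyte genes (39.2% of all genes called) and 3 with the replicate block (Adgre1, Cd68 and Csf1r; 21.8% of all genes), and 0 to 5 with a library left out. In OVX-AS-IV-High against OVX, 1 became 0 with RLE size factors (6.51% of all genes), with leukocyte scaling (5.71%) and with the replicate block (7.76%), and 2 with only the groups compared (7.02%), and it ranged from 0 to 1 with a library left out. In OVX-AS-IV-High against Sham, 1 became 2 in DESeq2 (14.5%), without the low-count filter (13.8%) and with the replicate block (22%), 4 with leukocyte scaling (44.1% of all genes), and 0 with only the groups compared (14.5%) and with limma on log2(FPKM + 1) (14.6%) or log2(FPKM + 0.1) (14.1%), and it ranged from 0 to 3 with a library left out. The cause was not tested.

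Over all genes, leukocyte scaling called 6610 genes in OVX against Sham and 7437 in OVX-AS-IV-High against Sham, because it moved the median of all genes to -0.35 and -0.40. Leaving out a library gave 1763 to 4332 genes, 679 to 1429 and 1925 to 3995 in the 3 comparisons. DESeq2 called 790, 27 and 951 genes at an adjusted p under 0.05, where edgeR called 0. Member pairs that did not overlap numbered 15 to 24, 2 to 12 and 11 to 25 with a library left out.

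Reversed under leukocyte scaling were, in OVX against Sham, Cd68 (log2FC -0.0397), Cd163 (-0.29), C1qa (-0.31), C1qc (-0.24) and Csf1r (-0.0078), in OVX-AS-IV-High against OVX Mrc1 (-0.0113), and in OVX-AS-IV-High against Sham Cd68 (-0.14) and Csf1r (-0.28).

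Adgre1 in OVX-AS-IV-High against OVX reversed with the replicate block (-0.0209) and in limma, at -0.038 with a pseudocount of 1, with and without the filter, and -0.0526 with 0.1. Vsig4 in OVX-AS-IV-High against Sham reversed with the replicate block (0.10). With a library left out, log2FC in OVX against Sham ranged from -0.0771 to 0.27 for Cd163, -0.29 to 0.0854 for Mrc1, -0.11 to 0.28 for C1qa, -0.35 to 0.0348 for C1qb and -0.13 to 0.46 for C1qc. In OVX-AS-IV-High against OVX it ranged from -0.21 to 0.068 for Cd68, -0.13 to 0.32 for Adgre1, -0.0463 to 0.20 for Mrc1, -0.19 to 0.0081 for C1qa and -0.22 to 1.15 for Vsig4. In OVX-AS-IV-High against Sham it ranged from -0.21 to 0.13 for Mrc1, -0.20 to 0.18 for C1qa, -0.43 to 0.15 for C1qc, -1.11 to 0.11 for Vsig4 and -0.12 to 0.53 for Csf1r. Sham replicate 3 gave the upper end of each of the ranges against Sham.

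Same-numbered libraries correlated at 0.2, -0.161 and 0.253 between OVX and Sham and at 0.314, -0.158 and 0.435 between OVX-AS-IV-High and Sham. A pairing of these groups is not established either. The block moved the genes called at an unadjusted p under 0.05 from 2775 to 3677 and from 2978 to 3705 there, and from 1089 to 1310 in OVX-AS-IV-High against OVX.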

Other observations

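Other cell types of the marrow differed between the groups beside the macrophage panel. In OVX against Sham, 4 of 5 adipocyte genes were higher, with log2FC of 2.56 for Lep, 1.36 for Cidec, 1.35 for Adipoq and 1.12 for Plin1, and 5 of 5 measured B lineage genes were higher, among them Ms4a1 (log2FC 0.77) and Cd79a (log2FC 0.73), where 8.16% of all tested genes were higher. Without Sham replicate 3, 5 of 5 genes of each list were higher, where 12.9% of all genes were. In OVX-AS-IV-High against OVX, 3 of 5 B lineage genes were lower, Ms4a1 by a log2FC of -0.53, Pax5 of -0.40 and Cd79b of -0.34, where 2.03% of all genes were lower, and 0 of 5 adipocyte genes passed at an unadjusted p under 0.05 in edgeR. In OVX-AS-IV-High against Sham, 4 of 5 adipocyte genes were higher, where 9.17% of all genes were.

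Neutrophils and their precursors were represented by 7 tested genes, of which Mpo (log2FC 0.46) and Elane (log2FC 0.59) were higher in OVX than in Sham. Both were higher in the treated group than in Sham too, at 0.41 and 0.52, as was S100a9, at 0.40. Of 6 tested dendritic cell genes, Flt3, Ccr7 and Siglech were higher in OVX, and Ccr7 and Siglech in the treated group, and of 6 T cell genes Cd8a and Lck were higher in OVX. The 6 T cell genes summed to 35.26, 91.87 and 44.19 CPM in OVX replicates 1, 2 and 3. In Sham they summed to between 32.0 and 38.38 CPM, so that OVX replicate 2 stood apart. In the treated group against OVX, 0 genes of these 3 lists passed, where 6.45% of all genes did. Against Sham, 8.16% of all genes were higher in OVX and 9.17% in the treated group. Without Sham replicate 3 these shares were 12.9% and 11.7%. Flt3 and Cd8a then lost their calls in OVX against Sham, and S100a9 lost its call in the treated group.

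Osteoclast genes, which share the lineage of macrophages, gave 0 calls among 8 in OVX against Sham, where 16.4% of all genes passed. Their median log2FC was 0.38. Mmp9 alone was higher in the treated group than in Sham (log2FC 0.33), where 9.17% of all genes were. Without Sham replicate 3, Ctsk and Atp6v0d2 were higher in OVX, where 12.9% of all genes were, and Mmp9 lost its call. Of 6 osteoblast genes, Bglap was higher in OVX (log2FC 1.21), where 8.16% of all genes were. Without Sham replicate 3, Col1a1 and Sp7 were higher in OVX too, and Bglap and Col1a1 were higher in the treated group than in Sham. Of 8 erythroid genes, Hba-a1 was lower in OVX than in Sham (log2FC -0.41) and Hbb higher in the treated group than in Sham (log2FC 0.68), and both belong to families of near-identical copies. Without Sham replicate 3, Hba-a1 lost its call and Hbb was higher in OVX than in Sham too. None of 7 muscle genes passed in any of the 3 comparisons, with a median log2FC of -1.01 in OVX and -1.17 in the treated group against Sham. Without Sham replicate 3, Acta1, Actn3 and Ckm were lower in OVX than in Sham, where 12.4% of all genes were. Acta1, Actn3 and Myh4 were then lower in the treated group than in Sham, where 11.6% of all genes were. Of 6 endothelial genes, Emcn was lower in OVX than in Sham (log2FC -0.47) and Pecam1 was lower in the treated group than in OVX (log2FC -0.46). In the treated group against Sham 4 were lower, where 8.48% of all genes were. Without Sham replicate 3, Emcn lost its call in OVX, Cdh5 was lower there, and the 4 kept theirs.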
